A study of Mus musculus with 4 samples.

Results

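The plasminogen activator genes analysed here were *Serpinb2*, *Serpine2*, *Plau*, *Plaur* and *Plat*, 5 of the 32285 genes counted, found by gene symbol. They were selected on levels measured in these same libraries, so their values are given as descriptions and not as tests. The cells came from 4 cultures, 1 library each, of male C57BL/6J mice fed a chow diet, and neither the age of the mice nor how many were pooled is given in the sources used here. De-differentiated fat (DFAT) cells make up the iWAT_DFAT and eWAT_DFAT libraries and are the fibroblast-like cells that grow out when floating adipocytes of inguinal (iWAT) or epididymal (eWAT) white adipose tissue attach to the upper wall of an inverted flask. The iWAT_ASPC and eWAT_ASPC libraries are of cultured stromal vascular fraction (SVF) cells of the same depots, which the study takes as adipose stem and progenitor cells (ASPCs). Adipocytes and SVF cells of a depot were prepared in parallel, so the DFAT and ASPC libraries of a depot may share their tissue. All 4 cultures were trypsinised and sorted with the dead cell dye 7-AAD before droplet capture. Barcodes with 5000 to 75000 UMIs (molecule tags, so that copies of 1 captured transcript are counted once), 200 to 7500 genes and under 10% mitochondrial UMIs were taken as cells, which gave 7629 iWAT_DFAT, 6464 eWAT_DFAT, 7424 iWAT_ASPC and 6745 eWAT_ASPC cells, 28262 in all. The lower limit of 500 UMIs given in the Methods would leave 6988 to 7843 barcodes per library.

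The libraries held 211396227 to 242282812 UMIs in total, and median cells held 22111 to 27617 UMIs. Any pair of libraries shared 13 to 20 cell barcodes, at most 0.297% of the cells of either. Levels are UMIs of a gene per 1000000 UMIs of the cells of a library (CPM), with exact 95% Poisson intervals in parentheses. Intervals cover counting error only, because each condition was sequenced as a single library, which also leaves no replicates to test. The 12 markers of ASPCs were detected in every library, with summed levels of 2632 to 8576 CPM and the lowest sum in eWAT_DFAT. The 8 adipocyte markers summed to 26.3 CPM in iWAT_DFAT and 106 CPM in eWAT_DFAT against 0.582 and 1.67 CPM in the ASPC libraries, with *Lep* at 0 UMIs throughout. The file header of the iWAT_ASPC library names another version of the counting software than the other 3, and comparisons with it cannot be told apart from that difference.

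Plasminogen is a circulating zymogen that is cut to plasmin, a broad protease that dissolves fibrin and loosens the matrix around cells. The cut is made by urokinase (*Plau*), which works mostly at the cell surface bound to its receptor (*Plaur*), and by tissue plasminogen activator (*Plat*), which works mostly on fibrin. Both activators are held in check by serpins, among them plasminogen activator inhibitor type 2 (*Serpinb2*), which is kept largely inside the cell and is known for its strong induction by inflammatory stimuli, and protease nexin 1 (*Serpine2*), which also binds thrombin.

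*Serpinb2* lies on chromosome 1 (107511423 to 107535478, plus strand), *Serpine2* on chromosome 1 (79794197 to 79861180, minus strand), *Plau* on chromosome 14 (20836660 to 20843385, plus strand), *Plaur* on chromosome 7 (24462484 to 24475968, plus strand) and *Plat* on chromosome 8 (22757727 to 22782844, plus strand) of GRCm38 (mm10), in the GENCODE M21 annotation. A RefSeq promoter window was at hand for 3 of the 5 genes. The 250 bases before the start are shown for the inhibitor that differed most between DFAT cells and ASPCs and, for contrast, for the inhibitor and the receptor that differed less, each 5′ to 3′ on the strand of the gene. Capitals mark matches, on either strand, to 5 motifs. The AP-1 motif, bound by Fos and Jun proteins, was searched as TGANTCA. The cyclic AMP element was searched as TGACGTCA. The letters of the TATA box, near which transcription starts, were TATAAA. For the GC box, bound by Sp1, they were GGGCGG, and the NF-kB motif was searched in its usual degenerate form. Overlapping matches run together.

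Serpinb2, chr1.0:107511173-107511422, plus strand, GRCm38.p6: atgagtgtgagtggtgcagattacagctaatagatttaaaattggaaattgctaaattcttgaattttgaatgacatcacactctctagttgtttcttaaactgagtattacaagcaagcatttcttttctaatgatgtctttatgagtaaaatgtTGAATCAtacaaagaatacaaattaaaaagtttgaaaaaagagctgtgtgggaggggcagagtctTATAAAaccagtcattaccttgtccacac
Serpine2, chr1.0:79858666-79858915, minus strand, GRCm38.p6: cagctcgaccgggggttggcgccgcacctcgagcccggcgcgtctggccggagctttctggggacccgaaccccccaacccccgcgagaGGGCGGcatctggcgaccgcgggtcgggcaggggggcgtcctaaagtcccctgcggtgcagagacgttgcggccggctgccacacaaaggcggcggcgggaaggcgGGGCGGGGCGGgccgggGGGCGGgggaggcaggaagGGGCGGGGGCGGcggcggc
Plaur, chr7.0:24462233-24462482, plus strand, GRCm38.p6: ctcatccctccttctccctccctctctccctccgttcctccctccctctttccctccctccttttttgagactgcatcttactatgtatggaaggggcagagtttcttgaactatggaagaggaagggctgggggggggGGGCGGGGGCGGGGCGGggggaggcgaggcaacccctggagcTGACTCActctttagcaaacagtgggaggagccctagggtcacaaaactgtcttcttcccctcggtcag

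The *Serpinb2* window held the AP-1 letters at bases 94 to 88 before the start and a TATA box at bases 29 to 24, and no match to the GC box, the cyclic AMP element or the NF-kB motif. The *Plaur* window held the AP-1 letters at bases 69 to 63 and 3 GC boxes, and the *Serpine2* window 6 GC boxes. Among all 32851 RefSeq windows, 6.75% held the AP-1 letters in these 250 bases, 12.4% a TATA box, 32.7% a GC box, 1.55% the cyclic AMP element and 3.90% the NF-kB motif. RefSeq lists another *Serpinb2* start downstream, whose window holds the same AP-1 and TATA letters, and the *Serpine2* start used by RefSeq lies inside the gene as GENCODE draws it.

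Across the 4 libraries the genes took 3 courses. *Serpinb2* was abundant in both DFAT libraries and nearly absent from both ASPC libraries, *Serpine2* and *Plat* were highest in iWAT_DFAT, and *Plau* and *Plaur* were higher in eWAT than in iWAT in DFAT cells and ASPCs alike. The plot of levels by library shows these courses.

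**Figure D1:**
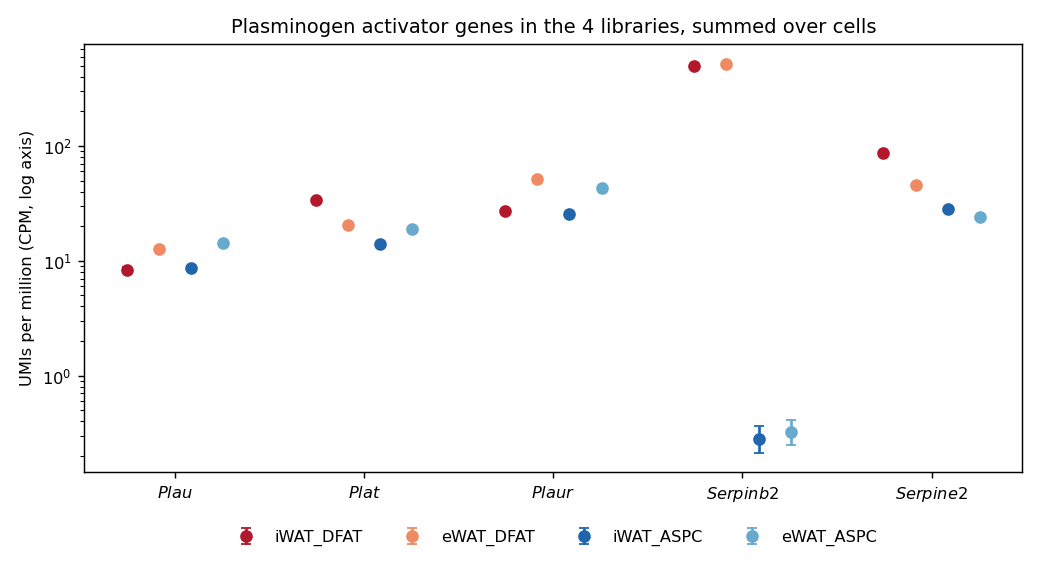
Levels of the 5 genes in each library, in CPM on a log axis, summed over all cells, with exact 95% Poisson intervals as bars (most are smaller than the points). *Serpinb2* stood at 497 and 520 CPM in the DFAT libraries and 0.281 and 0.324 CPM in the ASPC libraries, while the other genes stayed within a few-fold.

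Among the activators, *Plau* stood at 8.38 CPM (7.97 to 8.81) in iWAT_DFAT, 12.6 CPM (12.1 to 13.1) in eWAT_DFAT, 8.65 CPM (8.24 to 9.07) in iWAT_ASPC and 14.2 CPM (13.7 to 14.8) in eWAT_ASPC. The order was eWAT_ASPC, eWAT_DFAT, iWAT_ASPC and iWAT_DFAT, and the intervals of the last pair overlapped. The iWAT to eWAT log2 ratio was -0.59 (-0.68 to -0.49) in DFAT cells and -0.72 (-0.81 to -0.63) in ASPCs. Between DFAT cells and ASPCs the log2 ratio of *Plau* was -0.05 (-0.15 to 0.06) in iWAT and -0.18 (-0.26 to -0.10) in eWAT, so that the depots lay farther apart than the cell sources.

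*Plat* stood at 33.9 CPM (33.1 to 34.8) in iWAT_DFAT, 20.6 CPM (19.9 to 21.3) in eWAT_DFAT, 13.9 CPM (13.4 to 14.4) in iWAT_ASPC and 18.9 CPM (18.3 to 19.5) in eWAT_ASPC. Its course was therefore unlike that of *Plau*, with the highest level in iWAT_DFAT and the lowest in iWAT_ASPC. It was 2.44-fold (2.34 to 2.56) higher in DFAT cells than in ASPCs in iWAT and 1.09-fold (1.04 to 1.14) higher in eWAT. A cluster of 81 eWAT_DFAT cells, led by *Igfbp5* and *Slc6a12* and described below, held 816 of the 3821 *Plat* UMIs of that library. Without the clusters led by *Slc6a12* in both DFAT libraries, *Plat* stood at 16.3 CPM (15.8 to 16.9) in eWAT_DFAT, below eWAT_ASPC, with a DFAT to ASPC log2 ratio of -0.21 (-0.28 to -0.14), and at 32.8 CPM (31.9 to 33.6) in iWAT_DFAT. The iWAT to eWAT log2 ratio was 0.72 (0.66 to 0.78) in DFAT cells and -0.45 (-0.52 to -0.37) in ASPCs, which is a depot difference in opposite directions. Without the same clusters the ratio in DFAT cells was 1.003 (0.940 to 1.067), just past 2-fold. With *Plau* and *Plat* counted in the same cells, the *Plau* to *Plat* UMI ratio was 0.247 (0.233 to 0.261) in iWAT_DFAT, 0.611 (0.580 to 0.644) in eWAT_DFAT, 0.623 (0.586 to 0.662) in iWAT_ASPC and 0.753 (0.716 to 0.791) in eWAT_ASPC. The iWAT_DFAT library thus had fewer urokinase UMIs for each tissue plasminogen activator UMI than any other library.

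The receptor *Plaur*, a lipid-anchored surface protein that holds urokinase on the cell, stood at 27.0 CPM (26.2 to 27.7) in iWAT_DFAT, 51.5 CPM (50.5 to 52.5) in eWAT_DFAT, 25.5 CPM (24.8 to 26.2) in iWAT_ASPC and 43.1 CPM (42.2 to 44.0) in eWAT_ASPC. Its order by library put both eWAT libraries above both iWAT libraries, as for *Plau*. The eWAT level was 1.91-fold (1.84 to 1.98) that of iWAT in DFAT cells and 1.69-fold (1.63 to 1.75) in ASPCs. DFAT cells and ASPCs differed less, by 1.06-fold (1.02 to 1.10) in iWAT and 1.20-fold (1.16 to 1.23) in eWAT. Under the median-of-ratios scaling and the total without the 100 highest genes the iWAT value of that ratio turned sign, and under the former the eWAT level reached 2-fold that of iWAT in DFAT cells. The *Plaur* to *Plau* UMI ratio was 3.22 (3.04 to 3.41) in iWAT_DFAT, 4.09 (3.91 to 4.28) in eWAT_DFAT, 2.95 (2.79 to 3.12) in iWAT_ASPC and 3.03 (2.90 to 3.16) in eWAT_ASPC, highest in eWAT_DFAT.

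The summed levels of smooth muscle and endothelial markers were also higher in eWAT than in iWAT within DFAT cells and within ASPCs, though not every marker was. The 7 smooth muscle markers summed to 44.8 CPM in iWAT_DFAT, 458 CPM in eWAT_DFAT, 864 CPM in iWAT_ASPC and 2015 CPM in eWAT_ASPC, and the 10 endothelial markers to 26.5, 70.7, 46.3 and 104 CPM in the same order, with no marker of either list at 0. The sums of 11 mesothelial markers in that order were 6.42, 36.4, 73.7 and 193 CPM, of which *Krt19* made up 70.7 CPM in iWAT_ASPC. In ASPC-like clusters alone the iWAT to eWAT log2 ratio of *Plau* was -0.58 in DFAT cells and -0.67 in ASPCs, and that of *Plaur* was -0.92 and -0.59. Neither ASPC library held a smooth muscle-like cluster, so these ratios leave out no ASPC cells for carrying smooth muscle markers. They do leave out the endothelial-like cells and the unnamed clusters of both ASPC libraries. The mesothelial-like and immune-like cells of eWAT_ASPC and the Schwann-like cells of iWAT_ASPC are left out too. Of these ASPC cells the largest cluster was an unnamed one of 745 eWAT_ASPC cells, described below, in which *Plaur* stood above the library level. The part of the markers in the depot ratios of *Plau* and *Plaur* was not tested.

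*Serpinb2* was counted in 91241 UMIs of iWAT_DFAT and 96466 UMIs of eWAT_DFAT cells, 497 CPM (494 to 500) and 520 CPM (516 to 523). In iWAT_ASPC and eWAT_ASPC cells it was counted in 56 and 64 UMIs, 0.281 CPM (0.212 to 0.365) and 0.324 CPM (0.250 to 0.414). The DFAT level was 1768.5-fold (1361.8 to 2341.4) the ASPC level in iWAT and 1604.2-fold (1256.1 to 2083.2) in eWAT. In each depot this was the ratio of rank 3 among the genes with 5 or more CPM in either library, 10426 genes in iWAT and 10298 genes in eWAT. The depots hardly differed, with a log2 ratio of -0.07 (-0.08 to -0.05) in DFAT cells and -0.21 (-0.75 to 0.33) in ASPCs, and the sign of both turned under some alternatives.

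*Serpine2*, a secreted inhibitor of urokinase, tissue plasminogen activator and thrombin, stood at 86.3 CPM (85.0 to 87.6) in iWAT_DFAT, 45.4 CPM (44.5 to 46.4) in eWAT_DFAT, 28.0 CPM (27.3 to 28.8) in iWAT_ASPC and 24.0 CPM (23.3 to 24.7) in eWAT_ASPC. No intervals overlapped, and both DFAT libraries lay above both ASPC libraries. DFAT cells were 3.08-fold (2.98 to 3.17) above ASPCs in iWAT and 1.89-fold (log2 ratio 0.92, 0.87 to 0.97) in eWAT, and the iWAT to eWAT log2 ratio was 0.93 (0.89 to 0.96) in DFAT cells and 0.23 (0.17 to 0.28) in ASPCs. In ASPC-like clusters alone, the clusters being described below, these depot ratios were 1.06 and -0.02. The *Plau* to *Serpine2* UMI ratio was 0.0971 (0.0921 to 0.102) in iWAT_DFAT, 0.277 (0.264 to 0.290) in eWAT_DFAT, 0.308 (0.292 to 0.326) in iWAT_ASPC and 0.593 (0.566 to 0.621) in eWAT_ASPC. By this count urokinase transcripts were scarcest beside those of the inhibitor in iWAT_DFAT cells.

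At a threshold of 2-fold, 3 of the 5 genes were higher in iWAT_DFAT than in iWAT_ASPC (*Serpinb2*, *Serpine2* and *Plat*) and 0 were lower, against 9.91% and 5.18% of all genes tested. In eWAT, *Serpinb2* alone was higher in DFAT cells and 0 genes were lower, against 6.44% and 6.67%. Between the depots 0 of the 5 genes were past 2-fold in either direction (1, *Plat*, between the DFAT libraries without the clusters led by *Slc6a12*), against 8.29% of genes higher and 3.95% lower in iWAT_DFAT than in eWAT_DFAT. In ASPCs, where *Serpinb2* was under 5 CPM in both libraries, 0 of the other 4 were past it, against 2.94% of genes higher and 3.94% lower in iWAT. The genes were chosen with these ratios known, so nothing is read from their count. Of the ratios past 2-fold, the nearest to it was that of *Plat* between iWAT DFAT cells and ASPCs, at 1.29 on the log2 scale. Of those short of it, the nearest were *Plaur* between the DFAT libraries at -0.93 and *Serpine2* at 0.93 between the DFAT libraries and 0.92 between eWAT DFAT cells and ASPCs.

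**Figure D2:**
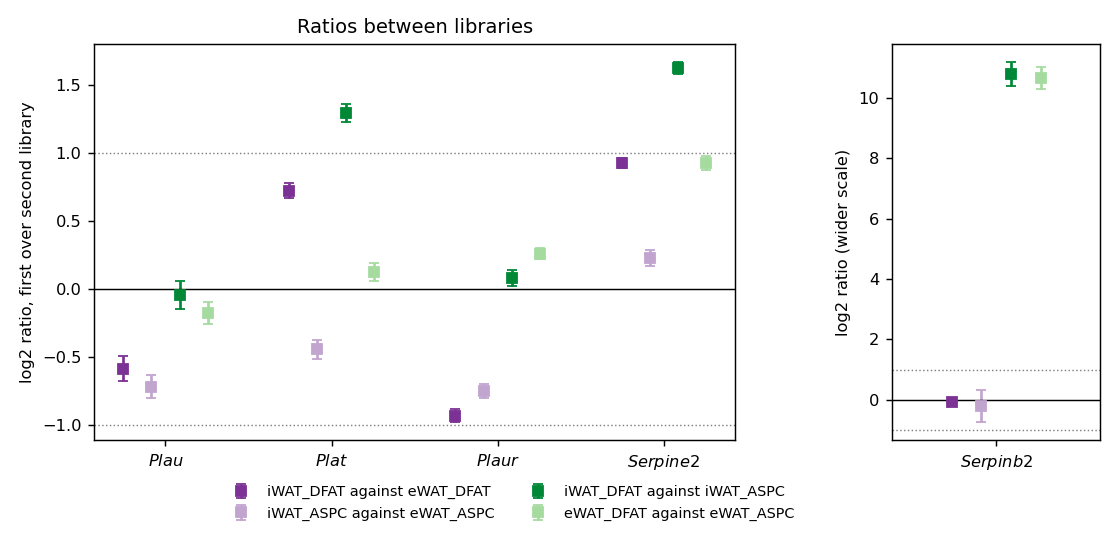
Log2 ratios of each gene in the 4 comparisons, first library over second, with exact 95% intervals for counting error, and *Serpinb2* on a wider scale at the right. Dotted lines mark 2-fold. *Plau* and *Plaur* lie below 0 in both depot comparisons, *Plat* lies above 0 in DFAT cells and below it in ASPCs, and *Serpinb2* lies near 0 between depots and above 10 between DFAT cells and ASPCs.

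Within the DFAT libraries *Serpinb2* UMIs were unevenly spread over the cells. A UMI was found in 75.9% (exact binomial interval 74.9 to 76.9) of iWAT_DFAT and 78.2% (77.1 to 79.2) of eWAT_DFAT cells, and after thinning each cell to 5000 UMIs in 57.5% and 55.4%. Free RNA of these libraries carried *Serpinb2* at 544 and 481 CPM, as measured in droplets of 1 to 100 UMIs, so part of the cells with few UMIs cannot be told apart from cells that took up free RNA. As the nearest measure of that background, 20.1% of the 179 pericyte-like cells of eWAT_DFAT held a UMI, or 7.26% after thinning. The median cell held 225 CPM in iWAT_DFAT and 182 CPM in eWAT_DFAT, and the cell at the 90th percentile 1407 and 1390 CPM. The tenth of the cells with the most *Serpinb2* UMIs held 44.1% of them in iWAT_DFAT and 52.6% in eWAT_DFAT, up to 171 and 291 UMIs in a cell.

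**Figure D3:**
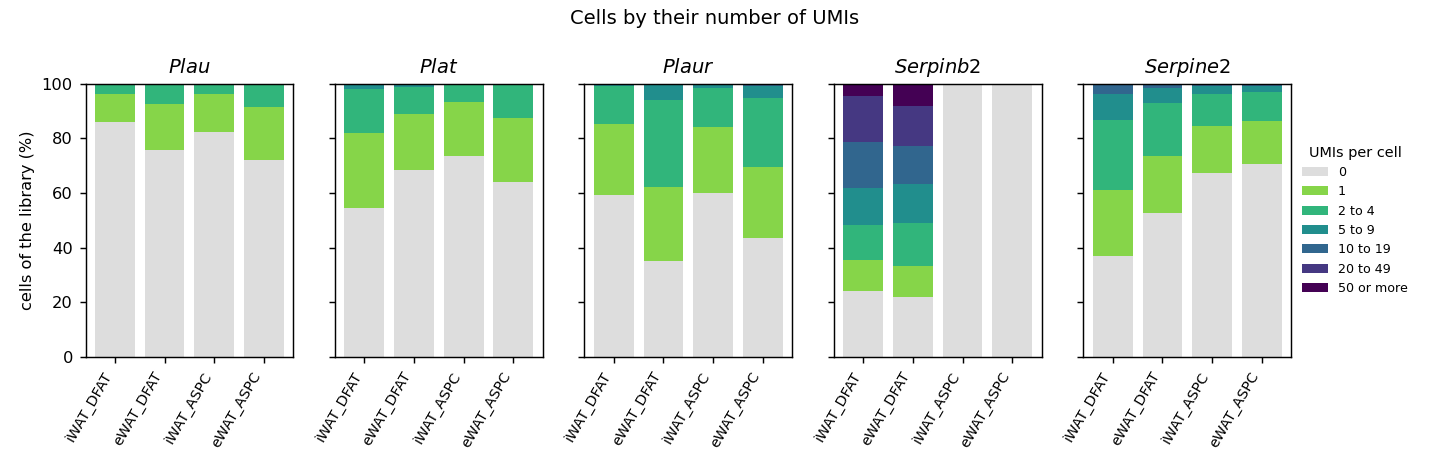
Share of the cells of each library with a given number of UMIs of each gene, at full depth. In the *Serpinb2* panel 24.1% of iWAT_DFAT and 21.8% of eWAT_DFAT cells held 0 UMIs while 4.48% and 8.09% held 50 or more, and nearly all ASPC cells held 0.

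In the ASPC libraries 37 cells each held a *Serpinb2* UMI, 0.498% (0.351 to 0.686) of iWAT_ASPC and 0.549% (0.387 to 0.755) of eWAT_ASPC cells. None of these barcodes was also a cell of a DFAT library (0 of 37 in each). With at most 0.297% of cell barcodes shared by any pair of libraries, hardly any match could occur, so nothing is read from this. They were gathered in particular clusters, with 34 of the 56 iWAT_ASPC UMIs in 19 cells of a 475-cell cluster led by *Gm32647*, *Lingo2*, *Gm49708*, *Prl2c2* and *Ptgs2*, the last an inducible prostaglandin synthase. There *Serpinb2* stood at 2.14 CPM (1.48 to 2.99). In eWAT_ASPC, 31 of the 64 UMIs lay in 16 of 484 mesothelial-like cells, at 2.63 CPM (1.79 to 3.73). Even these clusters lay far below the DFAT library levels. Without mesothelial-like and other non-ASPC-like cells, the eWAT DFAT to ASPC log2 ratio of *Serpinb2* was 11.975 in place of 10.648.

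Cells were clustered in each library without the 5 genes, the wider plasminogen list and the clade B serpins, and clusters were named from marker lists. In eWAT_DFAT the *Serpinb2* level was 537 CPM in ASPC-like and 556 CPM in smooth muscle-like cells, 362 CPM (336 to 390) in 79 mesothelial-like cells and 116 CPM (102 to 131) in 140 endothelial-like cells. It was 28.8 CPM (23.4 to 35.0) in 179 pericyte-like and 27.3 CPM (20.3 to 35.9) in 99 adipocyte-like cells. Pericyte-like cells had a median of 17050 UMIs and all cells of the library 27425. UMIs in cells of the lowest classes cannot be told apart from free RNA. In iWAT_ASPC and eWAT_ASPC free RNA held 0.84 and 0 CPM, values that rest on few UMIs. The iWAT_ASPC value lay above the 0.281 CPM of all cells of that library and below the 2.14 CPM of its highest cluster. Single UMIs in iWAT_ASPC cells therefore cannot be told apart from free RNA.

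In iWAT_DFAT the 215 adipocyte-like cells held 264 CPM (249 to 278), the 19 endothelial-like cells 128 CPM (94.7 to 170) and the 18 Schwann-like cells 32.0 CPM (13.8 to 63.1). The highest cluster, of 2090 ASPC-like cells led by *Chl1*, *Gm17167*, *Slfn5*, *Cyp7b1* and *Ifi205*, held 741 CPM (733 to 749), and the lowest of 50 or more cells, 172 cells led by *Fibin*, *Igfbp5* and *Sparcl1*, held 56.3 CPM. In eWAT_DFAT the highest cluster, of 1384 ASPC-like cells led by *Map7d2*, *Brinp3*, *Mitf*, *Gsta4* and *Pde10a*, held 638 CPM (630 to 646). The S phase cluster of 969 cells could hardly be told apart from it, at 635 CPM (627 to 644). The leading genes of the clusters at 741 and 638 CPM were not shared.

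*Serpine2* followed another map of cells. In iWAT_DFAT it was highest, at 195 CPM, in the 50-cell cluster led by *Slc6a12* described below for *Plat*. In the ASPC libraries it was highest outside the ASPC-like cells, at 245 CPM (224 to 267) in 146 Schwann-like and 223 CPM (196 to 253) in 56 endothelial-like cells of iWAT_ASPC, against 24.8 CPM in ASPC-like cells. In eWAT_ASPC the endothelial-like clusters parted, with 490 CPM (450 to 532) in 76 cells led by *Nts*, *Scn3a*, *Stab1*, *Cldn5* and *Prox1*, and 13.8 CPM in 53 cells led by *Mecom*, *Cd93* and *Prnd*. *Prox1* is the factor that specifies lymphatic endothelium. Adipocyte-like cells held 175 CPM (163 to 187) in iWAT_DFAT and 106 CPM (92.1 to 122) in eWAT_DFAT, above the ASPC-like cells of the same libraries at 83.3 and 39.9 CPM. Mesothelial-like cells were low, at 6.18 CPM (3.19 to 10.8) in eWAT_DFAT and 6.53 CPM (5.15 to 8.16) in eWAT_ASPC. *Serpinb2* and *Serpine2* were therefore placed in opposite order in the adipocyte-like and mesothelial-like cells of eWAT_DFAT.

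By class, the receptor and urokinase were highest in endothelial-like cells in each of the 4 libraries. *Plaur* stood at 120 CPM (87.8 to 161) in the 19 endothelial-like cells of iWAT_DFAT, 131 CPM (116 to 148) in eWAT_DFAT, 133 CPM (112 to 157) in iWAT_ASPC and 123 CPM (109 to 139) in eWAT_ASPC, above the 24.9 to 50.8 CPM of ASPC-like cells. *Plau* stood at 107 CPM (76.5 to 146) in these cells of iWAT_DFAT, 24.4 CPM (18.2 to 32.0) in eWAT_DFAT, 25.1 CPM (16.6 to 36.5) in iWAT_ASPC and 49.7 CPM (40.8 to 59.9) in eWAT_ASPC, against 8.52 to 13.8 CPM in ASPC-like cells. The iWAT_DFAT value of *Plau* rests on 40 UMIs. In the 99 adipocyte-like cells of eWAT_DFAT *Plaur* was at 2.67 CPM (0.868 to 6.24), and *Plau* had 0 UMIs, which allows up to 1.60 CPM at a floor of 3 counts.

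*Plat* had its peak in small clusters of the DFAT libraries. It stood at 251 CPM (221 to 284) in 50 iWAT_DFAT cells led by *Slc6a12*, *Il11*, *Slco4a1*, *Tmem108* and *Akr1b3*, and at 479 CPM (446 to 513) in 81 eWAT_DFAT cells led by *Igfbp5*, *Slc6a12*, *Txk*, *Stc1* and *Prss35*. *Slc6a12*, a betaine transporter known for its response to hypertonic stress, was among the leading genes of both. The other clusters of 50 or more cells held 11.6 to 72.4 CPM in iWAT_DFAT and 1.07 to 56.7 CPM in eWAT_DFAT. In endothelial-like cells *Plat* stood at 193 CPM (151 to 243) in 19 cells of iWAT_DFAT, 102 CPM (84.1 to 123) in 56 cells of iWAT_ASPC, 56.7 CPM (47.1 to 67.8) in 140 cells of eWAT_DFAT and 35.2 CPM (27.8 to 44.0) in 129 cells of eWAT_ASPC, above the library level in each. It was also high in the Schwann-like cells of iWAT_DFAT at 112 CPM (74.5 to 162) and of iWAT_ASPC at 64.2 CPM (53.7 to 76.1). Its adipocyte-like levels were low, at 11.6 CPM (8.82 to 15.1) in iWAT_DFAT and 1.07 CPM in eWAT_DFAT, from 2 UMIs.

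**Figure D4:**
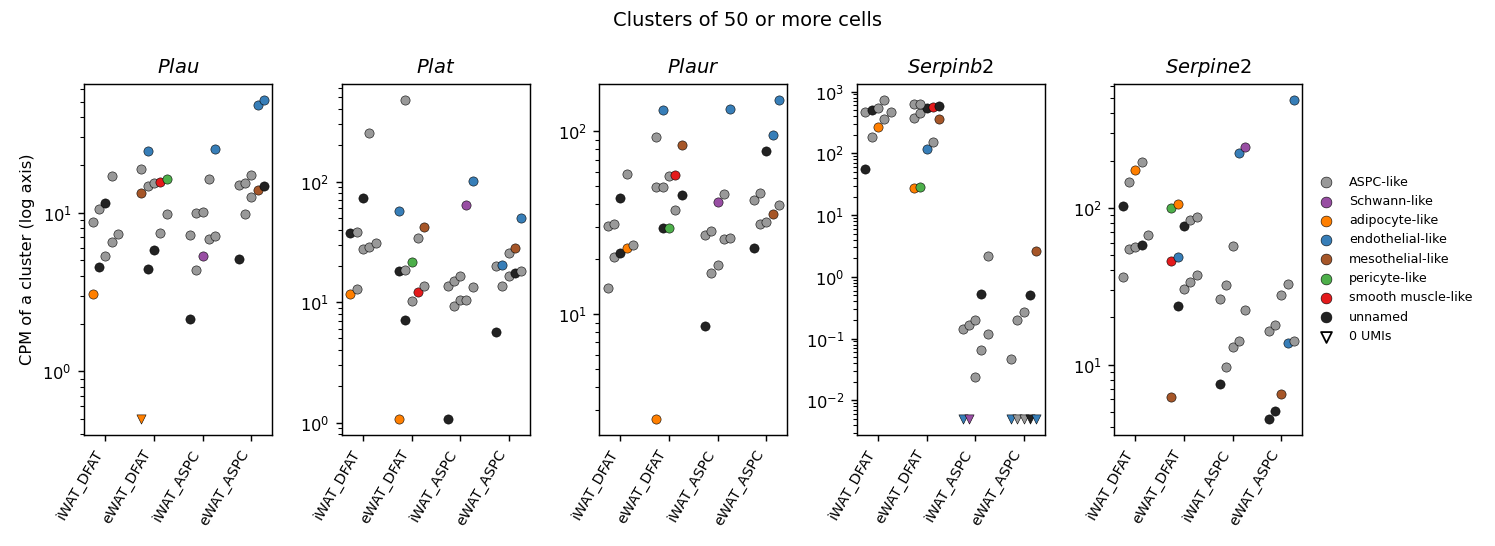
Level of each gene in every cluster of 50 or more cells, in CPM on a log axis with its own range in each panel, by library, with the class of the cluster as colour and triangles at the bottom for clusters with 0 UMIs. The 2 high *Plat* points are the clusters at 251 and 479 CPM, and the high blue points for *Plaur* are endothelial-like.

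Some clusters of ASPC-like cells were led by genes of the G2 and M phases, and they are set beside the ASPC-like clusters of the same library in which no cell cycle markers were raised. *Serpinb2* stood at 365 CPM (358 to 372) in the iWAT_DFAT cluster led by *Aspm*, *Cenpf* and *Gas2l3*, against 590 CPM (585 to 595). In the eWAT_DFAT cluster led by *Cenpf*, *Aurka* and *Ube2c* it stood at 379 CPM (373 to 386) against 578 CPM (572 to 585). The clusters led by S phase histone genes held 462 CPM in iWAT_DFAT and 635 CPM in eWAT_DFAT, so that the S phase clusters lay on either side of the cells without raised markers. *Serpine2* was lower in those G2/M clusters and in the S phase clusters alike. It stood at 54.7 CPM (G2/M) and 56.6 CPM (S phase) against 105 CPM in iWAT_DFAT. In eWAT_DFAT it stood at 30.2 CPM (G2/M) and 33.7 CPM (S phase) against 49.8 CPM. In iWAT_ASPC it stood at 13 CPM in the cluster led by *Fbxo5*, *Top2a* and *Aurkb*, where S phase markers were raised too, and 14.1 CPM in that led by *Cenpa*, *Kif20a* and *Cdkn3* and 26.4 CPM in that led by S phase histone genes, where G2/M markers were raised too, against 31.9 CPM, and in eWAT_ASPC at 16.5 CPM in the cluster led by *Plk1*, *Cenpf* and *Hmmr*, against 28.4 CPM. Another ASPC-like cluster of eWAT_ASPC with raised G2/M markers, 27 cells led by *Ctla2a*, *Ube2c* and *Aurka*, held *Serpine2* at 9.28 CPM. An unnamed eWAT_ASPC cluster of 745 cells led by *Tnfsf15*, *Cspg4* and *Hmga2* had raised G2/M and S phase markers and *Serpine2* at 4.50 CPM. Its leading genes hold a pericyte marker, *Cspg4*, and no ASPC marker, though 8 of the 12 ASPC markers were each found in 50% or more of its cells. *Plaur* stood at 77.8 CPM (74.3 to 81.5) in the 745 cells, at 67.2 CPM in the 27 cells and at 32.1 CPM in the cluster led by *Plk1*, against 38.0 CPM in the ASPC-like clusters without raised markers. In the other libraries *Plaur* differed less between ASPC-like G2/M clusters and those without raised markers. It stood at 23.8 against 25.9 CPM in iWAT_DFAT, 49.5 against 47.7 CPM in eWAT_DFAT and 26.3 against 23.7 CPM in iWAT_ASPC.

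Across single cells, genes were ranked by their Pearson correlation with each member, on the log of counts scaled by the cell total, in the pair of libraries where the member was highest. Cells of a library share its depth and free RNA, and the counts are sparse, so the values are descriptions. For *Serpine2*, 10 genes were among the 20 highest in both iWAT_DFAT and eWAT_DFAT, led by the complement gene *C3* (r = 0.41 and 0.30 over 7629 and 6464 cells) and *Serping1* (0.35 and 0.30), the C1 inhibitor, with the collagenase *Mmp2*, the proteoglycan *Dcn*, *Lgals3bp*, *C1s1*, *Itm2b*, *Lcn2*, *Ctsd* and *C1qtnf7*. For *Plau* there were 10 in eWAT_ASPC and eWAT_DFAT, led by *Lpp* (0.21 and 0.18 over 6745 and 6464 cells) and including *Vcl*, *Pdlim5*, *Ccn2*, *Crim1*, *Thbs1*, *Lmod1*, *Tpm1* and *Msrb3*. For *Plaur* there were 8 in eWAT_DFAT and eWAT_ASPC, led by the cytokine receptor *Tnfrsf12a* (0.24 and 0.31) and the growth factor *Hbegf* (0.22 and 0.26), with *Tm4sf1*, *Tagln2*, *Itga5*, *Fermt2*, *Ccn2* and *Inhba*. *Ccn2*, a matricellular protein gene, stood in the lists of both *Plau* and *Plaur*. *Serpinb2* had *Timp1*, an inhibitor of metalloproteinases (0.36 in eWAT_DFAT and 0.20 in iWAT_DFAT), and *Plat* had *Nupr1* as the single shared gene (0.12 in iWAT_DFAT and 0.29 in eWAT_DFAT). Apart from it the *Plat* lists differed. That of eWAT_DFAT was led by *Gem* (0.43), *Stc1* (0.39), the heat shock genes *Hspa1b* (0.39) and *Hspa4l* (0.39) and *Akr1b3* (0.39), and held *Hspa1a* (0.37) and the early response genes *Arc* (0.37), *Atf3* (0.37), *Fosb* (0.30) and *Fos* (0.28). *Stc1*, *Akr1b3* and *Gem* were also among the leading genes of the 81-cell eWAT_DFAT cluster in which *Plat* was highest. In iWAT_DFAT the highest were the matrix genes *Col1a2* (0.15), *Fn1* (0.14) and *Col5a2* (0.13). The part of the stress and early response genes in the *Plat* level was not tested.

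By level over the 4 libraries, the genes nearest to each member were found by the distance between log2(CPM + 1) values centred on their mean, among 6971 genes. The nearest to *Serpinb2* were *Akr1c18* (distance 1.57), a progesterone-metabolising enzyme, and the neutrophil chemokines *Cxcl5* (2.09) and *Cxcl2* (2.23). *Akr1c18* stood at 139 and 216 CPM in iWAT_DFAT and eWAT_DFAT and at 0.296 and 0.258 CPM in iWAT_ASPC and eWAT_ASPC. The nearest were *Dcbld2*, *Rel* and *Igf2bp2* for *Serpine2*, *Slc4a2*, *Prepl* and *Tmem208* for *Plau*, *Fgf2*, *Fxyd5* and *Tbc1d1* for *Plaur*, and *Dot1l*, *Vasn* and *Trp53inp2* for *Plat*. With 4 libraries, many genes share any such order.

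Of the 27 clade B serpins counted, 11 lie in a cluster on chromosome 1 and 16 on chromosome 13. The neighbours of *Serpinb2* on either side were *Serpinb7*, at 1.82 CPM in iWAT_DFAT, 0.189 CPM in eWAT_DFAT, 0.0351 CPM in iWAT_ASPC and 0.0456 CPM in eWAT_ASPC, and *Serpinb8*, at 4.96, 3.26, 1.73 and 0.790 CPM in that order. Both were higher in DFAT cells than in ASPCs, *Serpinb7* by 51.9-fold (24.9 to 130) in iWAT, from 335 and 7 UMIs, and 4.14-fold (1.95 to 9.79) in eWAT, from 35 and 9, and *Serpinb8* by 2.87-fold (log2 ratio 1.52, 1.34 to 1.70) in iWAT and 4.13-fold (2.05, 1.79 to 2.31) in eWAT, but neither reached 5 CPM. At any level, 9 of the 17 clade B serpins with UMIs in both iWAT libraries were at least 2-fold higher in DFAT cells and 6 lower, beside 16.2% and 11.5% of all such genes, and in eWAT 8 of 16 were higher and 4 lower, beside 19.8% and 9.35%. Many of these ratios rest on few UMIs. Of 6 clade B serpins at 5 or more CPM in iWAT DFAT cells or ASPCs, 1 was at least 2-fold higher in DFAT cells (*Serpinb2*) and 3 lower, beside 9.91% and 5.18% of all genes. In eWAT 2 of 7 were higher (*Serpinb2* and *Serpinb1b*) and 3 lower, beside 6.44% and 6.67%. The granzyme inhibitor *Serpinb9* was lower in DFAT cells in both depots, and *Serpinb6b* was 30.7-fold lower in iWAT_DFAT than in eWAT_DFAT, at 2.13 and 65.3 CPM. Members of the chromosome 13 cluster are close copies of each other, and the effect of this on their counts was not tested.

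**Figure D5:**
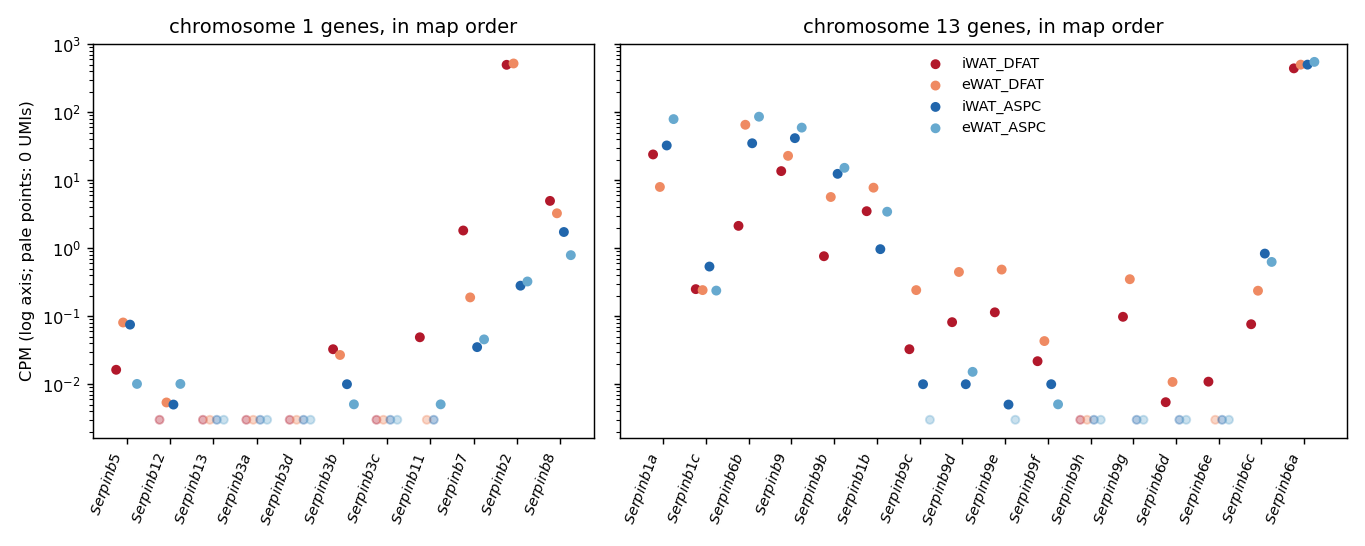
Levels of the 27 clade B serpins in CPM on a log axis, in map order on chromosomes 1 and 13, coloured by library, with pale points for 0 UMIs. *Serpinb2* is the gene whose DFAT points (497 and 520 CPM) lie far above its ASPC points (0.281 and 0.324 CPM), between neighbours below 5 CPM.

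A wider list of 30 genes covered the zymogen, further inhibitors, binding sites, clearance receptors and related proteases. *Plg*, the plasminogen gene itself, had 0 UMIs in 3 libraries and 0.00539 CPM in eWAT_DFAT.

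Of the 21 list genes at 5 or more CPM in iWAT, 2 were at least 2-fold higher in DFAT cells than in ASPCs and 6 lower, beside 9.91% and 5.18% of all genes tested, with a median log2 ratio of -0.41 against 0.09 over all genes tested. In eWAT 3 of 20 were higher and 5 lower, beside 6.44% and 6.67%, with a median of -0.38 against 0.07. *Hgf*, a growth factor built like plasminogen, was higher in DFAT cells in both depots, by 3.10-fold in iWAT and 5.96-fold in eWAT. *Thbd*, the gene of the endothelial receptor on which bound thrombin activates protein C, was 2.59-fold and 2.19-fold higher. *F2r*, the thrombin-cleaved receptor PAR1, was 4.28-fold lower in iWAT and 2.14-fold lower in eWAT, and the serine protease *Prss23* 6.09-fold and 5.03-fold lower. *S100a10*, which binds plasminogen at the cell surface together with *Anxa2*, was 2.48-fold lower in iWAT and 1.59-fold lower in eWAT. *Tfpi2*, a Kunitz-type inhibitor of plasmin, was 4.14-fold higher in eWAT_DFAT than in eWAT_ASPC and 0.986-fold in iWAT.

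Between depots, 0 of 20 list genes were past 2-fold in DFAT cells in either direction (8.29% higher and 3.95% lower over all genes), and 3 of 21 were higher in iWAT than in eWAT in ASPCs (*Tfpi2*, *Hgf* and *Masp1*) with 0 lower, beside 2.94% and 3.94%. The clearance receptor *Lrp1*, which takes up activator and inhibitor complexes, was higher in iWAT in both, with log2 ratios of 0.65 (0.64 to 0.67) in DFAT cells and 0.50 (0.48 to 0.51) in ASPCs. The tissue factor gene *F3*, the trigger of clotting, had depot ratios of the same signs as *Plat*, at 0.68 (0.66 to 0.70) in DFAT cells and -0.52 (-0.53 to -0.51) in ASPCs. So did *Htra1* (0.769 and -0.529), *Vldlr* (0.805 and -0.340) and *Lrpap1* (0.104 and -0.418). *Tfpi2*, *Anxa2*, *S100a10*, *Itgb1*, *F2r* and *Klk8* had the reverse signs. The share of all genes with opposite signs was not computed.

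Lists of inflammatory and early response genes were set beside *Serpinb2*. The summed level of 21 NF-κB target genes was 12138 CPM in iWAT_DFAT, 9355 CPM in eWAT_DFAT, 1705 CPM in iWAT_ASPC and 1566 CPM in eWAT_ASPC, and 18 of 20 at 5 or more CPM were at least 2-fold higher in DFAT cells in iWAT and 14 of 21 in eWAT, beside 9.91% and 6.44% of all genes tested. The other 2 and 7 were within 2-fold, and the median log2 ratio was 2.73 in iWAT and 1.73 in eWAT, beside 0.09 and 0.07 over all genes. The sum of 18 early response genes was 5098, 1637, 1260 and 1712 CPM in that order, and 14 of 18 were 2-fold higher in DFAT cells in iWAT but 2 of 18 in eWAT, with 2 lower, beside the same shares and 6.67% of genes lower in eWAT, so that the early response list was higher in DFAT cells in iWAT and not in eWAT, where its median log2 ratio was -0.28. Between the DFAT libraries 12 of 18 early response genes were at least 2-fold higher in iWAT and 0 lower. Of the NF-κB targets 7 of 21 were higher and 1 lower, beside 8.29% and 3.95% of all genes tested. The median log2 ratios were 1.66 and 0.60, beside 0.09 over all genes and -0.065 for *Serpinb2*. Both lists were chosen with earlier results of these data known. The part of these genes in the *Serpinb2* difference was not tested.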

How the data were processed

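Droplet single-cell RNA counts of 4 libraries, 1 per group, were analysed. The deposited matrices hold raw UMI counts per gene and barcode, empty droplets included, which the authors made with Cell Ranger against mm10 with introns included, per the file headers in version 7.1.0 for 3 libraries and version 4 for iWAT_ASPC, while the submitters' processing notes name 7.0.0. CellBender and DoubletFinder, named in the Methods, were not run. Cells were chosen by the limits stated in the report, doublets were kept, and their removal (0.8% per 1000 cells) was an alternative. UMIs were summed per library and scaled to CPM. Ratios carry exact conditional binomial intervals at 95%, and the ratio code was tested on simulated counts. Each library was clustered, without the members, the wider list and clade B serpins, with 2000 variable genes, 30 components, 20 neighbours and Leiden resolution 0.5. A cluster took a cell type name when at least 50% of that type's markers, and 3 or more, were 2-fold higher and found in 10% of its cells, and was called ASPC-like when more ASPC markers than that were raised, or when no type was reached and 3 ASPC markers were each found in 50% of its cells. A cluster was left unnamed when its 10 leading genes held more markers of another type than of its own, or when its cells had a median UMI count below the library's median divided by 3 and none of the markers among its leading genes. The rules on ASPC markers and on leading genes were chosen once the clusters were known. Genes named are the 5 members, list genes at 5 or more CPM, the 3 nearest by level, those among the 20 best correlated in both libraries, and the 5 that led the highest clusters. Clade B serpins, *Plg* and the leading genes of the lowest and cell cycle clusters and the *Plat* correlates of single libraries were named after their values were seen. The members and lists were chosen with earlier results of these data known. Gene positions are from GENCODE M21, promoter sequences from RefSeq (GRCm38.p6). Clustering used leidenalg 0.10.2 and scikit-learn 1.9.0, intervals scipy 1.17.1 and figures matplotlib 3.10.9, under Python 3.11.15. Some genes counted in the lists are not reported here.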

Additional observations from a re-analysis of the deposited data

Results flagged for a closer look

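*Plat* was the member whose depot difference ran in opposite directions in DFAT cells and ASPCs. Its iWAT to eWAT log2 ratio was 0.72 (0.66 to 0.78) in DFAT cells, from 33.9 and 20.6 CPM, and -0.45 (-0.52 to -0.37) in ASPCs, from 13.9 and 18.9 CPM, a difference of 1.17 (1.08 to 1.26) for counting error only. With 1 library in each group the difference was not tested. Genes of the wider list, given above, also had opposite signs, in either sense, and the share over all genes was not computed. In ASPC-like clusters alone the ratios of *Plat* were 0.53 in DFAT cells and -0.51 in ASPCs. Without the clusters led by *Slc6a12*, where *Plat* was high, the ratio in DFAT cells was 1.003 (0.940 to 1.067). These clusters were chosen after the data were seen. They held 21.4% of the *Plat* UMIs of eWAT_DFAT, 4.01% of those of iWAT_DFAT and no ASPC cells. Leaving them out could therefore only raise the ratio in DFAT cells, and nothing on the directions is read from it. The part of the endothelial-like and Schwann-like cells, each under 200 cells, was not tested separately.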

How the results depend on the processing

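Each of the 20 ratios was recomputed under 10 alternatives, and 15 kept their sign in all of them. Of the 200 values, 2 moved by over 1.5 times, both for *Serpinb2* with ASPC-like clusters only: 11.975 in place of 10.648 for eWAT DFAT cells against ASPCs, and 1.09 in place of -0.21 between the ASPC libraries, which rests on few UMIs. The sign also turned for *Serpinb2* between the ASPC libraries without clusters in which cell cycle markers were raised, and for 3 ratios near 0: *Plau* and *Plaur* between DFAT cells and ASPCs in iWAT, and *Serpinb2* between the DFAT libraries. With ASPC-like clusters only it turned for *Serpine2* between the ASPC libraries too (-0.02 in place of 0.23), and 1 gene was past 2-fold in place of 0 between the ASPC libraries (*Serpinb2*) and 1 between the DFAT libraries (*Serpine2*). The counts in this section take all 5 genes at any level, also *Serpinb2* between the ASPC libraries, where it was under 5 CPM. At 1.5-fold in place of 2-fold, 2 genes were past the threshold between eWAT DFAT cells and ASPCs in place of 1, 2 in place of 0 between the ASPC libraries, and 4 in place of 0 between the DFAT libraries. The share of all genes past 1.5-fold was not computed, so nothing is read from these counts. Without clusters in which cell cycle markers were raised, 2 were past it in place of 1 between eWAT DFAT cells and ASPCs. Between the DFAT libraries 1 was past it in place of 0 under median-of-ratios scaling (*Plaur*) and 1 with the mean of single-cell CPM (*Serpine2*). An alternative chosen after seeing the data left out the clusters with *Slc6a12* among their leading genes, 50 iWAT_DFAT and 81 eWAT_DFAT cells. The *Plat* ratio was then -0.21 in place of 0.12 between eWAT DFAT cells and ASPCs. Between the DFAT libraries it was 1.003 in place of 0.721, where 1 gene was past 2-fold in place of 0. Both clusters were high in *Plat*, so their choice set the direction of these changes and nothing is read from them. No replicate could be left out, since each group has 1 library. Within a depot no paired analysis was possible, because its DFAT and ASPC libraries, prepared in parallel, form a single pair. The pairs of the depots were not analysed together. The depth of 183664704 to 199357348 UMIs in cells limits a gene with no UMI to at most 0.0163 CPM, so depth limits only such low values.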
